A study of Mus musculus with 6 samples.

Results

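The genes of creatine metabolism measured here were Gatm, Gamt, Slc6a8, Ckb and Ckmt1, 5 genes of the 23282 rows counted in each library, taken by symbol. Mouse pancreatic acinar cells were profiled by 3' tag sequencing in 6 libraries: 3 of control cells, and 3 of cells in which ERRγ (estrogen-related receptor gamma, gene Esrrg) was knocked out conditionally (cKO). Control libraries carry the genotype label wild type and cKO libraries the label ERRgamma -/-, both on strain C57BL/6J. Cells of both groups were kept in Waymouth's medium with serum, antibiotics, trypsin inhibitor and epidermal growth factor. None of the sources used here names the Cre driver, the deleted exons, the time in culture or an age. The labels do not say whether libraries of a group came from separate animals, so a p-value here reflects only how these libraries spread, and that spread may be technical.

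Creatine carries phosphate from where ATP is made to where it is used. It is built from arginine and glycine by Gatm (arginine:glycine amidinotransferase), a mitochondrial enzyme whose products are guanidinoacetate and ornithine, and by Gamt (guanidinoacetate methyltransferase), a cytosolic enzyme that adds a methyl group from S-adenosylmethionine. Slc6a8 imports creatine through the plasma membrane. Ckb, the brain-type cytosolic creatine kinase, and Ckmt1, the ubiquitous mitochondrial creatine kinase, exchange phosphate between creatine and ATP. The exocrine pancreas is known for strong expression of the synthesis enzymes.

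The libraries held 15.2 to 25.2 M counts each (M, mega). Acinar marker genes such as Ctrb1 and Cela2a took 28.8% to 30.4% of control counts and 7.14% to 23.2% of cKO counts, with cKO replicate 2 nearest to the controls. TMM scaling, which assumes that most genes do not change, gave effective library sizes of 7.96 M on average in control and 50.8 M in cKO. The direction of a gene can depend on this choice, so levels are given as counts per M (CPM) both of the effective size and of the library total. Fold changes are on the TMM scale unless library totals are named. Esrrg had 0 counts in each control library and 0, 9 and 1 in cKO replicates 1, 2 and 3. These counts check no label, since a gene with 0 counts in control can show no loss. The counted end of the transcript also may not be in the deleted part.

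Promoters of Gatm, Gamt and Ckb are shown because the first and second of these genes fell together and the third rose. The sequences come from RefSeq (GRCm38.p6), which matched 4 of the 5 genes (Slc6a8 was not among them). Each runs 5′ to 3′ on the gene's strand, up to 250 bases before the start site and leaving out bases inside the annotated transcript. Capitals mark the CCAAT box, the TATA box (searched as TATAAA) and the GC box (searched as GGGCGG), on either strand.
Gatm, chr2:122611304-122611527, minus strand: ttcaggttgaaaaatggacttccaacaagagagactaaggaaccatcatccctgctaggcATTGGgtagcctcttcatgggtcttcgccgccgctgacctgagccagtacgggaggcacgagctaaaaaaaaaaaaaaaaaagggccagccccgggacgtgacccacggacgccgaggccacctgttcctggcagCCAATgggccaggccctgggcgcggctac
Gamt, chr10:80261013-80261262, minus strand: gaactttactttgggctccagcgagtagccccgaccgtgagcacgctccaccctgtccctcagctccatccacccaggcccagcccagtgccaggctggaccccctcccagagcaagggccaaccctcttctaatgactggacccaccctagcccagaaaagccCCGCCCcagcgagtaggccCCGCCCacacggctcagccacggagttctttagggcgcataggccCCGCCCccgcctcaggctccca
Ckb, chr12:111672339-111672588, minus strand: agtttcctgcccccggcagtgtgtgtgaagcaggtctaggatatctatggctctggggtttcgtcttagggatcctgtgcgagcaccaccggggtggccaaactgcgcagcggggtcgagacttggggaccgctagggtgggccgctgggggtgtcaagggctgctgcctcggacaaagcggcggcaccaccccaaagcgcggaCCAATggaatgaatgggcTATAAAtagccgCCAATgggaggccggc

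The 3 promoters held different letters near their starts. The Ckb window had TATAAA 28 bases before the start, with CCAAT at 46 and 16 bases. TATAAA occurs in 12.4% and CCAAT in 33.8% of all 32851 promoter windows of 250 bases, and in 6.92% and 34.7% of the 12334 windows of tested genes. The Gamt window had 3 copies of GGGCGG on the opposite strand, at 86, 67 and 22 bases, a motif found in 32.7% of all windows and 56.3% of those of tested genes. The Gatm window had CCAAT at 55 bases and again, on the opposite strand, at 190 bases. These distances count from the RefSeq start, while the printed Gatm sequence holds 224 of the 250 bases and stops short of that start. The ERR response element, searched as TNAAGGTCA on both strands, was found in 1.14% of all windows, 0.697% of those of tested genes and in 0 of the windows of these genes. Its core AAGGTCA, which lies within the longer motif, was found in 4.08% of all windows and 2.92% of those of tested genes. Of the members it occurred only in the window of the upstream Ckmt1 start, at 179 bases on the opposite strand. These matches describe letters in the windows and are no evidence of binding.

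Relative to the bulk of genes, both synthesis enzymes fell, the importer Slc6a8 and the cytosolic kinase Ckb rose, and the mitochondrial kinase Ckmt1 did not pass the test. Thus 4 of 5 members were called by edgeR at an adjusted p under 0.05, 2 lower and 2 higher. Of all 13132 tested genes 44.7% were called, 20.7% lower and 24% higher, so a call by itself sets no member apart. The groups of the same 4 members did not overlap on the TMM scale, as was true of 56.2% of tested genes, 25.4% lower and 30.7% higher. Fitted on library totals, Slc6a8, Ckb and Ckmt1 were called higher and 0 members lower, beside 96.4% and 0.404% of tested genes. The falls of Gatm and Gamt were large beside other genes: 1.26% of tested genes had a lower fold change than Gatm and 0.716% a lower one than Gamt. The rises stood out less, as 6.84% had a higher fold change than Ckb and 12.4% a higher one than Slc6a8. For Ckmt1, 27.5% of tested genes had a lower one.

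**Figure D1:**
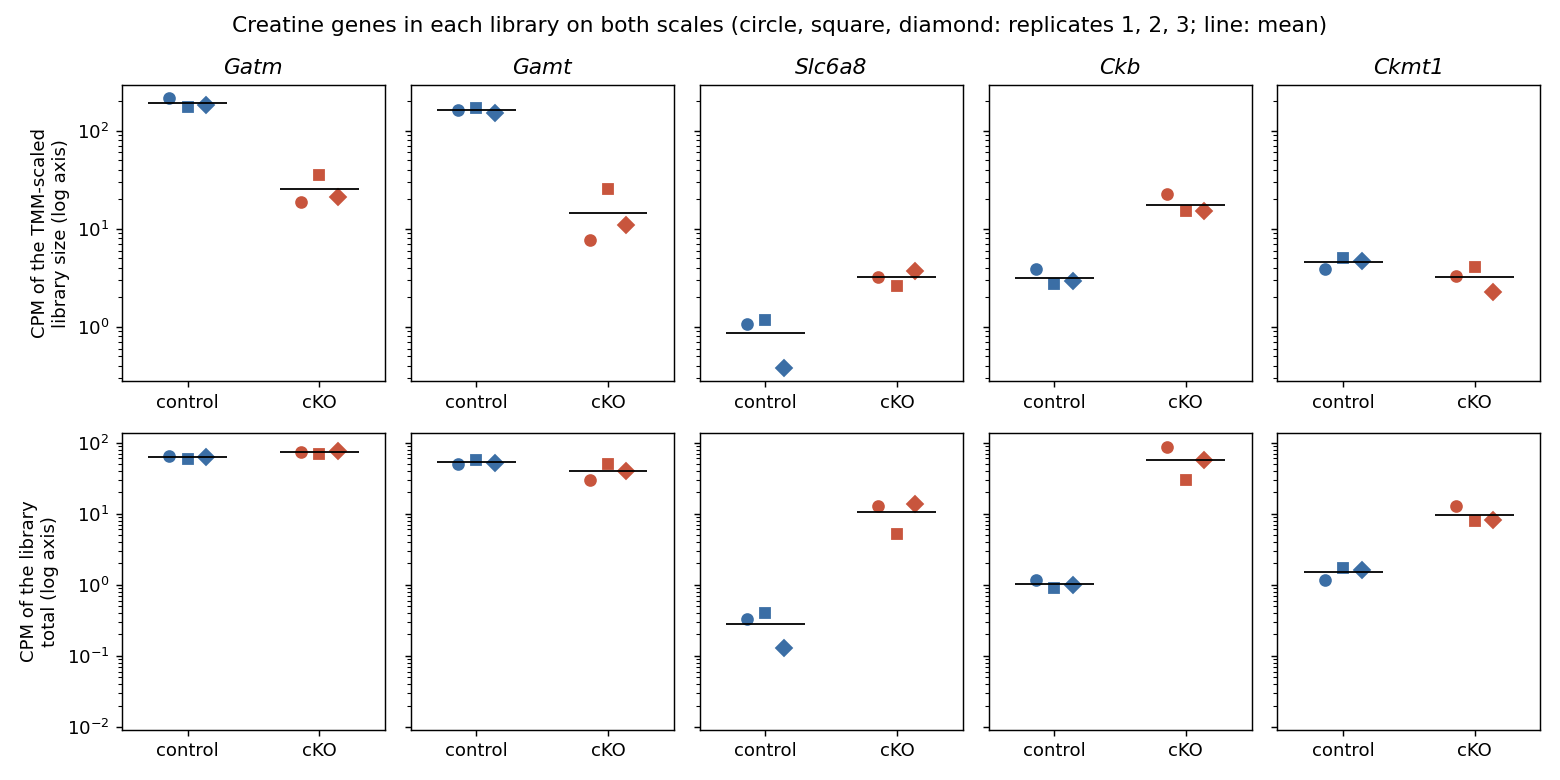
Each point is 1 library and each line a group mean, for the 5 genes in CPM of the TMM-scaled library size (upper row) and of the library total (lower row), both on log axes. On the TMM scale the cKO points of Gatm and Gamt lie below and those of Slc6a8 and Ckb above every control point; in share of the library only Gamt lies below.

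Gatm (chromosome 2, 122594467 to 122611303, minus strand, GRCm38) commits arginine and glycine to creatine. Control replicates 1, 2 and 3 held 1607, 1498 and 1442 counts, and the cKO replicates 1122, 1180 and 1264. On the TMM scale these were 214, 176 and 183 CPM in control and 18.9, 35.6 and 21.1 CPM in cKO. Every cKO library was below every control library, and cKO replicate 2 was the highest of its group. The fold change was -2.93 ± 0.23 (log2, SE; edgeR adjusted p = 7.57e-07), from 191 ± 19.8 to 25.2 ± 9.07 CPM (SD, n = 3 each), which is 7.59-fold lower.

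As a share of the whole library Gatm moved little. Its share was 65.8, 59.5 and 62.7 CPM in control and 74.0, 69.6 and 77.3 CPM in cKO. Here every cKO library was above every control library (exact 2-sided permutation test, p = 0.1, below which 3 libraries against 3 cannot go). With acinar markers and Rn45s left out of the total, the direction turned, to means of 91.6 CPM in control and 91.0 CPM in cKO (exact permutation p = 0.7). In all, 96.9% of tested genes had a share that was higher in cKO without overlap. Fitted on library totals, the fold change of Gatm was 0.23 ± 0.37 (edgeR adjusted p = 0.531), where the median of all tested genes was 3.36.

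Gamt (chromosome 10, 80258151 to 80261012, minus strand) makes creatine from the product of Gatm. Its counts were 1230, 1458 and 1194 in control replicates 1, 2 and 3, against 451, 841 and 659 in the cKO replicates. On the TMM scale control libraries held 164, 172 and 152 CPM and cKO libraries 7.60, 25.4 and 10.99 CPM. The groups did not overlap, and cKO replicate 2 was again nearest to the controls. The fold change was -3.48 ± 0.46 (log2, SE; edgeR adjusted p = 0.000858), from 162 ± 10.1 to 14.7 ± 9.43 CPM (SD, n = 3 each). Without cKO replicate 2 it was -4.11.

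Gamt was among the few genes whose share of the library was lower in cKO. Its share was 50.3, 57.9 and 51.9 CPM in control and 29.7, 49.6 and 40.3 CPM in cKO. The cKO libraries lay below the controls without overlap, with cKO replicate 2 just under control replicate 1 (exact 2-sided permutation p = 0.1). The difference of the means, from 53.4 ± 3.99 to 39.9 ± 9.93 CPM (SD, n = 3 each), was -8.44 CPM without cKO replicate 1. Of all tested genes 0.518% had a share that was lower without overlap, and 1.07% had a lower mean share. The trait is not particular to Gamt. Among the listed acinar markers, Amy2b, Cpa1, Cpb1, Cela2a, Pnlip, Prss2, Rnase1 and Zg16 also had a lower share without overlap. The shares of Cela1, Ctrb1, Ptf1a and Bhlha15 overlapped. On library totals the fold change was -0.42 ± 0.38 and did not pass (edgeR adjusted p = 0.271).

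Slc6a8 (chromosome X, 73673150 to 73682502, plus strand), the creatine importer, had few counts in control: 8, 10 and 3, the last of which is the floor that a count of 0 allows. In cKO it had 192, 87 and 224 counts. On the TMM scale these were 1.06, 1.18 and 0.381 CPM in control and 3.23, 2.62 and 3.74 CPM in cKO, without overlap. The gene rose by 1.86 ± 0.45 (log2, SE; edgeR adjusted p = 0.00375). Without 1 library at a time the value ran from 1.52 to 2.16, and the call held each time. As a share of the library it was 0.285 ± 0.138 CPM in control and 10.5 ± 4.67 CPM in cKO (SD, n = 3 each).

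Ckb (chromosome 12, 111669361 to 111672338, minus strand), the cytosolic creatine kinase of brain and smooth muscle, rose most among the members. Control replicates had 29, 23 and 23 counts, the cKO replicates 1331, 504 and 919. On the TMM scale control libraries held 3.86, 2.71 and 2.92 CPM and cKO libraries 22.4, 15.2 and 15.3 CPM. No libraries of the groups overlapped. The rise was 2.49 ± 0.25 (log2, SE; edgeR adjusted p = 2.75e-06), or 5.58-fold in the means. As a share of the library it went from 1.03 ± 0.140 to 57.9 ± 29.1 CPM (SD, n = 3 each), and cKO replicate 2, at 29.7 CPM, was the lowest of the cKO group. Ckb has 2 named pseudogenes, and 5 of the 251 words of 50 bases in the last 300 bases of its transcript also occur in other genes, so a small part of its reads may have been lost or misplaced. For the other 4 members that number was 0.

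Ckmt1 (chromosome 2, 121357714 to 121363737, plus strand) makes phosphocreatine at the mitochondrial membranes. Its counts were 29, 43 and 37 in control, against 194, 135 and 135 in cKO. On the TMM scale control libraries held 3.86, 5.07 and 4.70 CPM and cKO libraries 3.27, 4.07 and 2.25 CPM, and the groups overlapped. The fold change of -0.52 ± 0.32 did not pass (log2, SE; edgeR adjusted p = 0.201). On library totals it was 2.68 ± 0.53 (edgeR adjusted p = 6.48e-07), below the median of 3.36 over all tested genes. The end of Ckmt1 overlaps by 10 bases the end of Strc on the other strand, so without strand a few tags could be shared. Counts of Strc were 9, 10 and 23 in control, against 83, 87 and 69 in cKO.

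**Figure D2:**
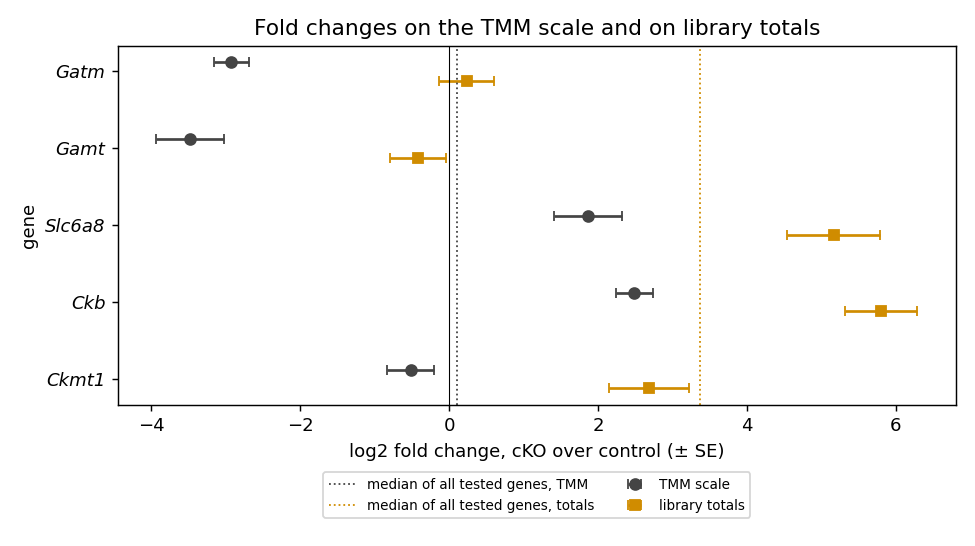
Points are log2 fold changes (cKO over control) of the 5 genes with their SE, on the TMM scale (circles) and on library totals (squares), and dotted lines are the medians of all tested genes, 0.10 and 3.36. On either scale Gatm and Gamt lie far left of the median and Slc6a8 and Ckb right of it, while Gatm and Ckmt1 change sign between the scales.

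Ratios between members within a library do not depend on the scaling between libraries. All 10 pairs were compared, and only their changes are read, since the level of a ratio also depends on how well each 3' end is counted. For 9 pairs the groups did not overlap (exact 2-sided permutation p = 0.1 for each, 0.111 after adjustment over the 10 pairs). That is the smallest p this design allows, so none of these differences could pass a threshold of 0.05. The share of all gene pairs without overlap was not taken. Of single tested genes 56.2% did not overlap on the TMM scale, and members moved in both directions. The count of 9 pairs by itself thus does not set these genes apart.

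The widest changes were those of the synthesis enzymes against Ckb and Slc6a8. The Gamt to Ckb ratio was 42.4, 63.4 and 51.9 in control and 0.339, 1.67 and 0.717 in cKO, a difference of -6.07 on the log2 scale (5.64 ± 0.284 against -0.43 ± 1.15, SD, n = 3 each). For Gatm over Ckb the ratio was 55.4, 65.1 and 62.7 in control and 0.843, 2.34 and 1.38 in cKO, a log2 difference of -5.39. Gamt over Slc6a8 differed by -5.44 (7.46 ± 0.66 against 2.01 ± 1.09) and Gatm over Slc6a8 by -4.76 (7.69 ± 0.72 against 2.93 ± 0.71, SD, n = 3 each).

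The synthesis enzymes also differed from each other. Gatm over Gamt was 1.31, 1.03 and 1.21 in control and 2.49, 1.40 and 1.92 in cKO, higher in every cKO library by a mean of 0.68 on the log2 scale. Among the kinases, Ckb over Ckmt1 was 1.00, 0.535 and 0.622 in control and 6.86, 3.73 and 6.81 in cKO, a log2 difference of 2.99, so the cytosolic form gained on the mitochondrial form. Slc6a8 over Ckb was the 1 pair whose groups overlapped (log2 difference -0.63; exact 2-sided permutation p = 0.3, also after adjustment).

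**Figure D3:**
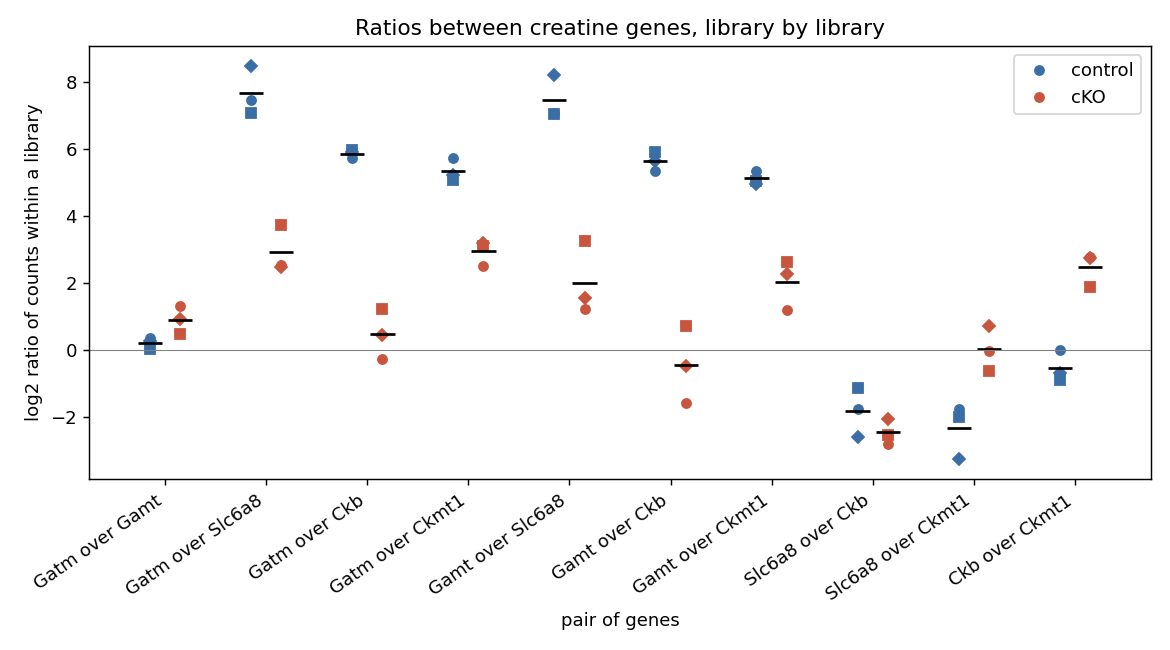
Each point is the log2 ratio of counts of 2 genes in 1 library (marker shapes are replicates 1, 2 and 3, black lines group means) for the 10 pairs. Control and cKO points are apart in 9 pairs and overlap for Slc6a8 over Ckb.

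Other cell types moved with the groups. Stellate cell and fibroblast markers rose in 9 of 10 genes and took 0.0240% to 0.0281% of control counts and 0.700% to 2.0% of cKO counts. Macrophage and monocyte markers rose in 9 of 9 genes, from 0.00414% to 0.00474% of control counts up to 0.0853% to 0.326% of cKO counts. The acinar markers fell in 12 of 12 genes. These calls are on the TMM scale, where the other lists had 2 higher and 3 lower of 7 tested duct genes, 2 and 0 of 6 lymphocyte genes, 1 and 2 of 6 endothelial genes, 0 and 1 of 7 islet genes, 2 and 0 of 5 smooth muscle and pericyte genes, 1 and 0 of 3 neuron and glia genes, and 0 and 1 of 1 adipocyte gene. No skeletal or heart muscle gene was tested, and Myh1, Myh4 and Myh6 had 0 counts throughout. In share of the library, all 10 lists other than the acinar list were higher in cKO without overlap, as was true of 96.9% of tested genes. Duct markers, for example, took 0.00432% to 0.00601% of control counts and 0.0233% to 0.0432% of cKO counts, islet markers 0.0181% to 0.0320% and 0.160% to 0.235%, and endothelial markers 0.000957% to 0.00109% and 0.00430% to 0.00609%. The ribosomal RNA precursor Rn45s, which can reflect RNA quality or carry-over of ribosomal RNA, held 21863, 18520 and 23880 CPM of the library total in control replicates 1, 2 and 3 and 66098, 50224 and 34139 CPM in cKO, also without overlap, and its part in the results was not tested. In such bulk samples fewer cells of a type and less RNA per cell cannot be told apart.

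The members were also set against the stellate and fibroblast, macrophage and monocyte, and acinar marker sums. These sums moved between the groups themselves, so the values follow largely from the TMM fold changes and are no separate evidence. On the TMM scale the stellate and fibroblast sum was 727 to 823 CPM in control and 3581 to 5110 CPM in cKO. The macrophage and monocyte sum was 121 to 154 CPM and 436 to 833 CPM. The share of all tested genes that overlapped against these sums was not taken. Per 1000 stellate and fibroblast marker counts, Ckb counts were 4.95, 3.73 and 3.55 in control, against 4.39, 4.25 and 3.24 in cKO, so the groups overlapped (exact 2-sided permutation p = 0.9). Slc6a8 had 1.37, 1.62 and 0.463 in control and 0.633, 0.733 and 0.790 in cKO, also with overlap (exact permutation p = 0.4). Per 1000 macrophage and monocyte marker counts both genes overlapped as well, with means of 23.4 ± 2.18 and 27.9 ± 6.49 for Ckb and of 6.38 ± 3.0 and 5.08 ± 1.09 for Slc6a8 (SD, n = 3 each, control and cKO). The part of those cell types in the rise of Ckb and Slc6a8 was not tested.

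Against the summed acinar marker counts Gatm and Gamt were higher in cKO. The sum itself fell on the TMM scale, from 851983 to 987517 CPM in control libraries down to 18239 to 118619 CPM in cKO libraries. Only 1.26% of tested genes had a lower TMM fold change than Gatm and 0.716% a lower one than Gamt. A rise against this sum therefore does not set either gene apart. That sum is mostly digestive enzyme genes such as Ctrb1 and Cela2a and holds few counts of Ptf1a and Bhlha15. On the TMM scale Ptf1a (-2.25), Bhlha15 (-3.33) and Cela1 (-3.41) fell less than Gamt (-3.48), and only Ptf1a fell less than Gatm (-2.93). The other listed acinar markers fell more than both, so the result is for the sum and not for each marker. Per 1000 acinar marker counts Gatm counts were 0.216, 0.206 and 0.215 in control, against 1.04, 0.300 and 0.698 in cKO, higher in every cKO library (exact 2-sided permutation p = 0.1). Gamt had 0.166, 0.201 and 0.178 in control and 0.417, 0.214 and 0.364 in cKO, also without overlap (exact permutation p = 0.1). In both genes cKO replicate 2 was the closest to control. Ckmt1 lay between the groups of markers: its mean was 18.8-fold higher in cKO against acinar markers and was 0.128 of the control mean against stellate and fibroblast markers.

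**Figure D4:**
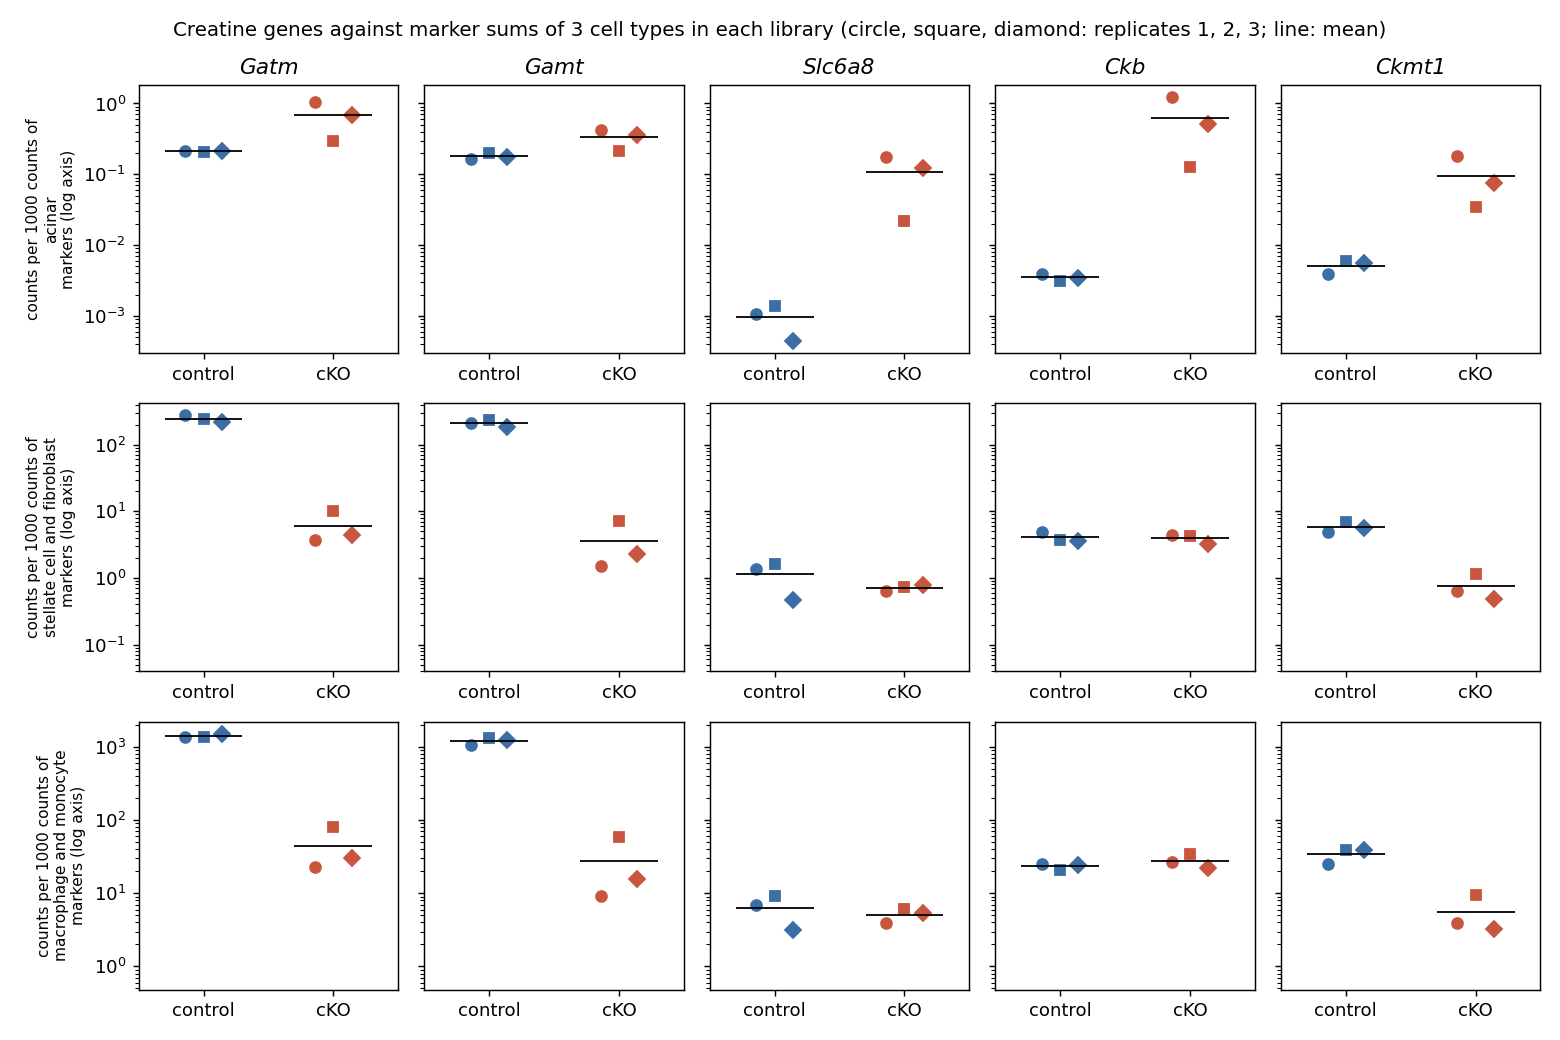
Counts of each gene per 1000 counts of acinar, stellate and fibroblast, or macrophage and monocyte markers are shown for each library on log axes, with lines at the group means. Ckb and Slc6a8 overlap between groups in the lower 2 rows, while Gatm and Gamt are higher in cKO against the acinar marker sum and lower against the others.

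The rest of the creatine genes were scarce. Slc16a12, a transporter that lets creatine leave cells, fell from 21, 10 and 8 counts in control to 3, 15 and 11 counts in cKO, where effective sizes were larger, by 2.93 ± 0.78 (log2, SE; edgeR adjusted p = 0.00687). The call was lost without control replicate 1 (-2.32; adjusted p = 0.0796). The muscle kinases Ckm, with at most 5 counts, and Ckmt2, with at most 1, were not tested. Of the list of 8 creatine genes, 6 were thus tested, 2 rose and 3 fell. Over this and the 7 lists that follow, 12 genes rose and 47 fell relative to the bulk of genes. On library totals 74 were called higher and 1, Gnmt, was called lower. Among the tested genes of these lists only Gamt, Gnmt, Cbs and Atp2c2 had a lower mean share of the library in cKO. The other falls are thus relative to other genes. These counts are to be read beside the 24% of all tested genes that were called higher and the 20.7% called lower on the TMM scale.

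Enzymes and carriers that make or use arginine, ornithine and proline mostly fell. Of 15 tested genes 12 fell and 2 rose, with a median of -1.51 against 0.10 for all tested genes. Odc1, ornithine decarboxylase, which turns ornithine into putrescine, fell by 2.03 ± 0.19 (log2, SE), and Azin1, its antizyme inhibitor, by 1.51 ± 0.16. The exceptions were Arg1, the arginase that splits arginine into ornithine and urea, which rose by 1.71 ± 0.17, and Oat, ornithine aminotransferase, which rose by 0.51 ± 0.18 (adjusted p = 0.0361, but 0.0533 to 0.135 when control replicate 1 or 3, or replicate 2 or 3 of the cKO, was left out). Arg1 is also known in activated macrophages, and its counts were 403, 432 and 405 in control and 10409, 4746 and 11408 in cKO. The part of macrophages in this rise was not tested.

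The glycine list fell in 8 of 10 tested genes and rose in 0 (median -1.37). Gcat, which releases glycine from a threonine product, fell by 2.38 ± 0.24 (log2, SE), from 170 ± 16.9 to 32.6 ± 13.2 CPM on the TMM scale (SD, n = 3 each). Psat1, of serine synthesis, fell by 1.87 ± 0.20, the glycine carrier Slc6a9 by 1.99 ± 0.21 and Shmt2, the mitochondrial enzyme that makes glycine from serine, by 1.42 ± 0.20.

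The cycle that gives Gamt its methyl donor and clears the used product moved mostly the same way, with 9 of 15 tested genes lower and 2 higher (median -1.12). Ahcy, which hydrolyses S-adenosylhomocysteine, fell by 2.22 ± 0.20 (log2, SE), Adk, adenosine kinase, by 2.75 ± 0.24 and Cth, of cysteine synthesis, by 2.20 ± 0.34. Nnmt, a nicotinamide methyltransferase that also uses the methyl donor, rose by 2.64 ± 0.37, from 16, 8 and 5 counts to 464, 241 and 470. Gnmt, glycine methyltransferase, and Cbs, of homocysteine removal, were chosen after their values were seen because they shared with Gamt a lower mean share of the library in cKO. Gnmt fell by 3.93 ± 0.58 with counts of 753, 883 and 920 in control against 196, 442 and 286 in cKO. Its call was kept on library totals (-0.90, edgeR adjusted p = 0.0225). Cbs fell by 3.22 ± 0.44, a call lost on library totals (-0.14, adjusted p = 0.704).

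Other phosphate shuttles were tested beside creatine kinase. Of 13 tested adenylate kinases, nucleoside diphosphate kinases and AMP deaminases, 8 fell and 1 rose (median -1.01). Ak3, the adenylate kinase of the mitochondrial matrix, fell by 1.95 ± 0.17 (log2, SE), Ampd2, an AMP deaminase, by 1.14 ± 0.24, and the nucleoside diphosphate kinase genes Nme1 by 1.17 ± 0.16 and Nme2 by 1.32 ± 0.18. Nme1 and Nme2 are close paralogs, so the division of reads between them is uncertain.

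The carriers that couple Ckmt1 to ATP went in opposite directions. Slc25a5, an ADP/ATP carrier of the inner membrane, fell by 1.33 ± 0.16 (log2, SE), and its paralog Slc25a4, known from heart and muscle, rose by 1.45 ± 0.24. The outer membrane channel gene Vdac2 fell by 1.20 ± 0.15, while Vdac1 had a fold change of -0.40 ± 0.16 (adjusted p = 0.0575, or 0.0284 without control replicate 3). In all, 2 of 5 tested genes of this list fell and 1 rose (median -0.40).

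The list of AMPK, the kinase that senses AMP, was called in shares near those of all tested genes (24% higher, 20.7% lower). Of its 12 tested AMPK and upstream genes 2 rose and 3 fell (median 0.06). The catalytic subunit gene Prkaa2 fell by 2.12 ± 0.37 (log2, SE), and the regulatory subunit genes Prkab2 and Prkag2 rose by 1.55 ± 0.39 and 0.81 ± 0.26. Stk11, the upstream kinase LKB1, fell by 0.44 ± 0.15 (adjusted p = 0.0235). The call of Prkag2 was lost without control replicate 1 or cKO replicate 1 (adjusted p = 0.0793 and 0.0612), and that of Stk11 without any 1 library other than control replicate 1 or cKO replicate 2 (0.0578 to 0.0836), and under other filters on low counts (0.0627 and 0.135).

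Of 9 genes of ATP-using pumps 2 rose and 2 fell (median -0.10), shares also near those of all tested genes. Atp2c2, a calcium and manganese pump of the secretory pathway, fell by 3.92 ± 0.47 (log2, SE), a call lost on library totals (-0.83, adjusted p = 0.0975), and had a lower mean share of the library in cKO. The plasma membrane calcium pump genes Atp2b4 and Atp2b1 rose by 1.30 ± 0.21 and 0.93 ± 0.16. Atp2a2, the calcium pump of the endoplasmic reticulum, fell by 0.46 ± 0.16 (adjusted p = 0.0333), a call lost without any 1 library other than cKO replicate 2 (0.0687 to 0.148) and under other filters on low counts (0.0519 and 0.177).

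**Figure D5:**
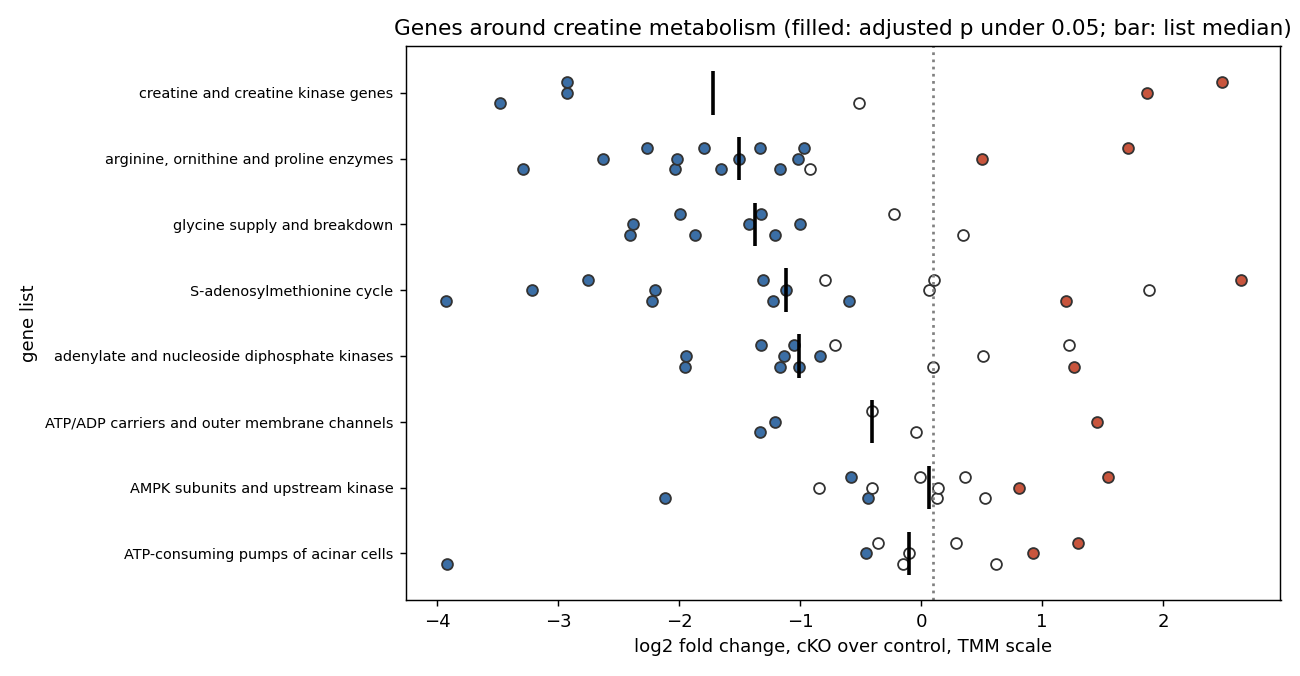
Each point is a tested gene of a list, placed by its log2 fold change (cKO over control, TMM scale), filled where the edgeR adjusted p is under 0.05; black bars are list medians and the dotted line is the median of all tested genes, 0.10. The arginine, glycine and S-adenosylmethionine lists have medians of -1.51, -1.37 and -1.12, and the AMPK and pump lists lie near the dotted line.

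As a description over the 6 libraries, the genes whose log2 CPM ran most like a member's were taken from 4325 candidates. For Gatm these were Mrpl57 and Reep5 (Pearson r = 0.9999 and 0.9994), for Gamt Fam134b, Rps4x and Amy2a2 (0.9998, 0.9996 and 0.9996). For Ckb they were Snrpb2, Nbl1 and Chmp4b (0.9985, 0.9984 and 0.9980), for Slc6a8 Sec11a, Cast and Srsf3 (0.9951, 0.9922 and 0.9913) and for Ckmt1 Pet100, Sucla2 and Nol7 (0.9909, 0.9760 and 0.9607). The libraries fall into 2 groups, so such values are common: 1074 candidates had r over 0.95 with Gatm and 1045 with Gamt, 526 with Ckb and 121 with Slc6a8, but 8 with Ckmt1.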

How the data were processed

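RNA of primary mouse acinar cells was made into libraries with a Lexogen QuantSeq kit, per the labels' protocols, which reads 1 tag near each 3' end. The authors deposited a table of raw counts by gene symbol for each library. The submitters' processing notes list Bowtie2, edgeR, mm10 and GRCm38 but give them no role or version. For the counter, annotation, strand setting and reads with several matches, the entry is: not given in the sources used here. Copies made by PCR may be included, as the labels mention no molecular identifiers, and floors (3 counts) cover counting error only.

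Tests were quasi-likelihood fits (glmQLFit, robust) by edgeR 4.0.16 under R 4.3.3, after filterByExpr (minimum count 10, minimum total 15) and TMM scaling, with Benjamini-Hochberg adjustment over all 13132 tested genes. The SE is the fold change divided by the square root of F. Ratios used an added count of 1, and log2 CPM a prior count of 2. Library totals of 15.2 M to 25.2 M counts give floors of 0.119 to 0.198 CPM of the total. Counts of any 2 replicates in a group differed beyond sampling noise (chi-square divided by its degrees of freedom, 14.6 to 370). Coordinates come from GENCODE M21 (GRCm38).

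The members, the gene lists and the marker lists were chosen with earlier results of these data known. Named genes are the 5 members, up to 4 genes per list with the smallest p, and for each member the 3 named genes with a mean log2 CPM of at least 3 and the highest Pearson r. Genes named by this rule but withheld are not reported here. Slc16a12, Oat, Gnmt, Cbs and Strc were added after their values were seen. Alternatives were library totals, upper-quartile factors, DESeq2 1.42.0, 2 other filters, a replicate block and leaving out each library.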

Additional observations from a re-analysis of the deposited data

How the results depend on the processing

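Apart from library totals, the 5 members kept direction and side of the threshold in 53 of 53 refits (Slc6a8 and Ckmt1 were not tested at a minimum of 10 CPM in 3 libraries). On library totals the fold change was 0.23 for Gatm, 2.68 for Ckmt1 and -0.42 for Gamt, whose call was lost. Genes called were then 12654 higher and 53 lower, and over the 8 lists 74 higher and 1 lower, in place of 3152, 2716, 12 and 47. Other named genes changed sign on library totals, with fold changes of 1.17 for Odc1, 1.74 for Azin1, 1.33 for Psat1, 1.18 for Slc6a9, 0.76 for Gcat, 1.84 for Shmt2, 0.96 for Ahcy, 0.41 for Adk, 0.95 for Cth, 1.28 for Ak3, 2.07 for Nme1, 1.89 for Nme2, 2.13 for Ampd2, 1.90 for Slc25a5, 2.05 for Vdac2, 2.89 for Vdac1, 1.02 for Prkaa2, 2.82 for Stk11, 2.78 for Atp2a2 and 0.14 for Slc16a12. The calls of Cbs (-0.14) and Atp2c2 (-0.83) were lost. These shifts follow from the scale, since library totals raise the median of all tested genes by 3.26. With at least 10 CPM in 3 libraries, where fewer genes were tested, 1443 genes were called higher and 1425 lower, with 7 and 30 over the lists. With acinar markers and Rn45s left out of the total, the share of Gatm differed by -0.64 CPM (cKO minus control), in place of 10.96. Leaving out 1 library gave 2388 to 3411 genes higher and 2076 to 2829 lower. The signs of the 10 ratios held in 80 of 80 repeats. Same-numbered libraries of the groups did not deviate together (r from -0.03 to 0.01). With 3 libraries per group this cannot show whether the replicate numbers pair them, and the labels do not say. With the replicate block 2884 genes were called higher and 2505 lower, with fold changes of -2.98 for Gatm, -3.66 for Gamt, 1.88 for Slc6a8, 2.47 for Ckb and -0.54 for Ckmt1. Low control counts limit the precision of the Slc6a8 rise.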
